A study of Rattus norvegicus with 93 samples.

Results

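Solute carriers are membrane proteins that move sugars, amino acids, metals, ions, nucleosides and many drugs across the cell surface and the membranes of mitochondria and lysosomes, and the rat carries a large number of them in numbered families. The members described here are the genes with a symbol of Slc followed by a family number, apart from Slc4a1 (the red cell anion exchanger) and Slc40a1 (the iron exporter). The array measured 137 of them, in 45 families, among 7810 genes with 1 annotated symbol. A gene with several probe sets was represented by the one of highest mean over all 93 arrays, and the rule used no response to treatment. Grouped by the main substrates of their family number, the members comprised 27 mitochondrial carriers, 25 amino acid transporters, 25 transporters of organic ions, vitamins, nucleosides and lipids, 20 metal transporters, 17 transporters of sugars and monocarboxylates, 13 of inorganic ions and 10 of nucleotide sugars. The substrate of a single gene can differ from its group. The serotonin transporter Slc6a4 was counted with amino acids, and the aromatic amino acid transporter Slc16a10 with monocarboxylates. Slc4a1ap meets the rule by its symbol, although it encodes an adaptor protein and not a carrier.

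Femur bone marrow came from male Sprague-Dawley rats of about 8 weeks of age, 1 array per rat, taken 1, 6 or 24 h once dosing had ended. Each rat received a pair of intravenous infusions. Topotecan, a topoisomerase I inhibitor, was given at 4.7 mg/kg in saline (NaCl), and oxaliplatin, a platinum drug that crosslinks DNA, at 15 mg/kg in dextrose solution (D5W). The 6 treatments are named by what was infused first and second. Topotecan alone was given as topotecan/D5W or as D5W/topotecan, oxaliplatin alone as NaCl/oxaliplatin or in the order oxaliplatin/NaCl, and the combination in both orders, topotecan/oxaliplatin or oxaliplatin/topotecan. Vehicle rats received NaCl/D5W or D5W/NaCl. The rats of topotecan/D5W, NaCl/oxaliplatin and topotecan/oxaliplatin were compared with NaCl/D5W, and those of D5W/topotecan, oxaliplatin/NaCl and oxaliplatin/topotecan with D5W/NaCl, at the same time. Of the 24 groups, 21 held 4 rats and 3 held 3 rats (topotecan/D5W at 24 h, oxaliplatin/NaCl at 6 h and D5W/NaCl at 24 h).

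Developing red cells need solute carriers for a defined purpose. Iron enters the cell and then the mitochondrion, glycine is imported for the first step of heme synthesis, and the mature cell carries urea and nucleoside transporters in its membrane. Other carriers mark other cells of the marrow, such as the serotonin transporter Slc6a4 of platelets and the lysosomal peptide transporter Slc15a3 of macrophages. Topotecan and oxaliplatin kill dividing marrow cells, and several solute carriers have been studied as routes by which platinum drugs and topotecan cross membranes.

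All values are log2 expression values, in which a difference of 1 is a factor of 2. A gene was called changed where the limma adjusted p was under 0.01 and the fold was above 2. At least 1 of the 18 comparisons with vehicle (6 treatments at 3 times) changed 49 of the 137 members, or 35.8%, against 2571 of the 7810 genes, or 32.9%. Of the 49, 22 only rose and 27 only fell, and no member rose in one comparison and fell in another. The remaining 88 members were called in none of the 18. The number of members called in any treatment was 9 at 1 h (4 rose, 5 fell), 23 at 6 h (9 rose, 14 fell) and 38 at 24 h (17 rose, 21 fell). The matching count over all genes was not made by time. In each treatment the rising and the falling share of all genes were also larger at 24 h than at 1 h, so the increase is not particular to the members. The 18 comparisons held 208 calls in all. In each of the 208 the treated rats and the vehicle rats did not overlap, and the highest adjusted p among them was 0.00405. Since every member difference above 2-fold also passed the p threshold, the fold threshold decided which members were called. Counting also the 6 called in the other comparisons below, 48 of 214 called differences fell under the thresholds when 1 rat was left out (with sizes of 0.62 to 1.08), and the rat is named where such a call is described.

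**Figure D1:**
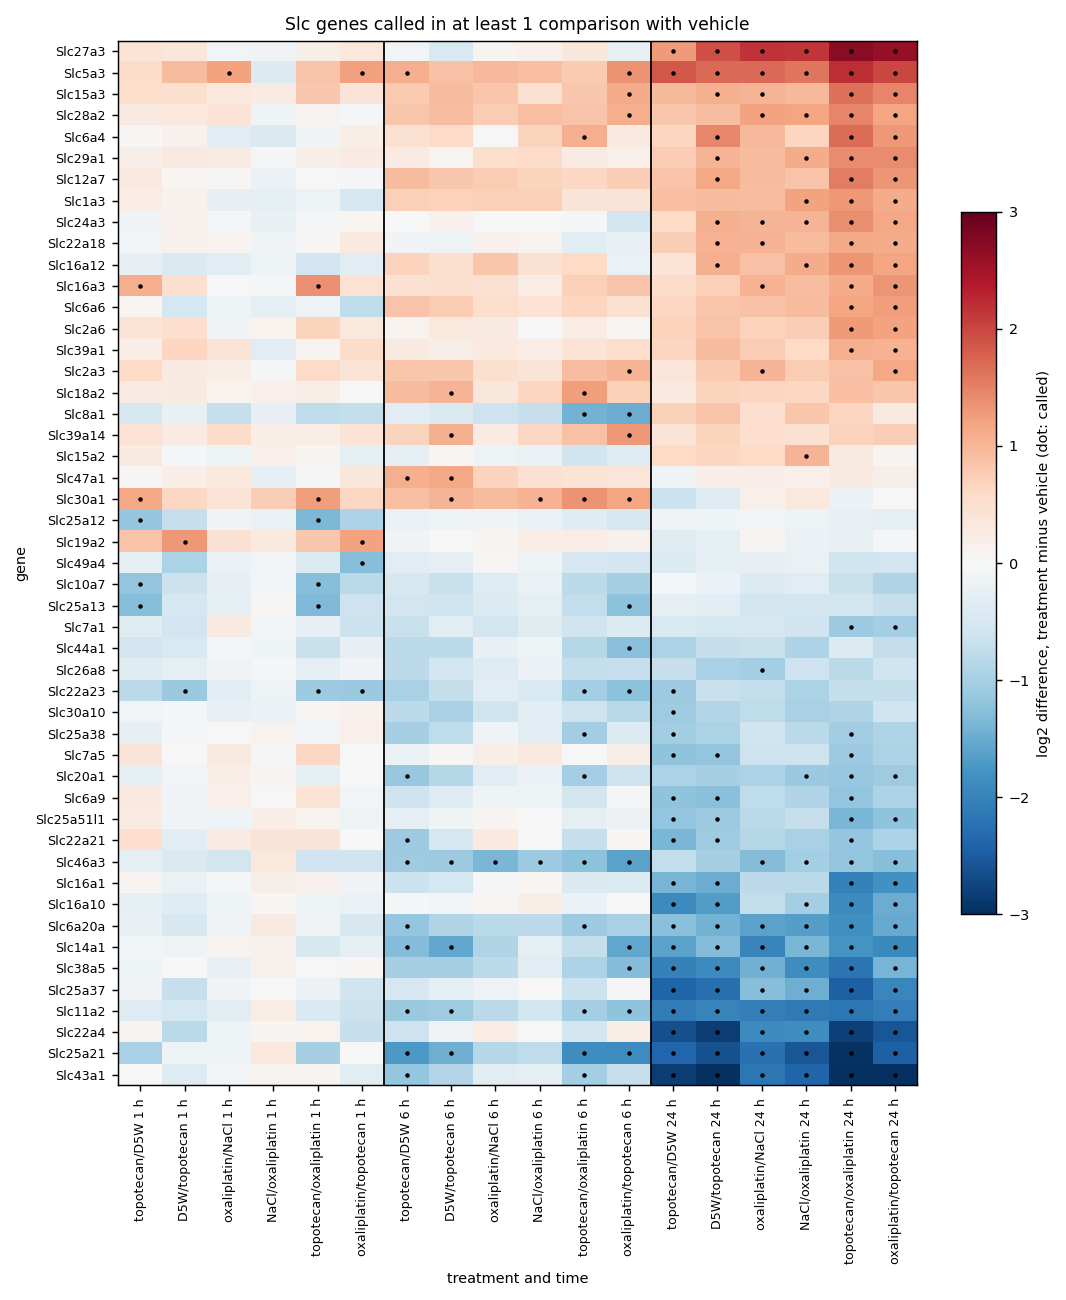
Log2 difference between treatment and its own vehicle group (colour) for the 49 members called in at least 1 comparison, by gene (rows) and by treatment and time (columns), with a dot on each called value and the colour scale ending at -3 and 3. Dots are most frequent at 24 h, where 38 members carry at least 1, and the lowest rows are blue in all 6 treatments.

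Of the 5 arrays whose skeletal muscle markers averaged over 2 log2 units above the median of all arrays (2.01 to 4.48 above, the other arrays at most 1.94 above), 2 belonged to oxaliplatin/NaCl at 24 h, and 1 each to oxaliplatin/NaCl at 1 h, topotecan/oxaliplatin at 6 h and topotecan/oxaliplatin at 24 h. Without these arrays 202 of the 208 calls were kept, and the 6 that were lost are given with their genes below. In the bulk tissue, fewer cells of a type and less RNA per cell cannot be told apart. At 1 and 6 h, the sample code column differed from that of the vehicle in both combinations, in NaCl/oxaliplatin and in D5W/topotecan, so code column and treatment cannot be told apart in those groups. At 24 h the same held for D5W/topotecan and oxaliplatin/topotecan. NaCl/oxaliplatin at 24 h shared 1 column with 1 vehicle rat, NaCl/D5W rat 11, and topotecan/oxaliplatin at 24 h shared its columns with vehicle rats.

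At 24 h, 21 members fell and 17 rose in at least 1 treatment, while the typical member changed little. The median difference of the members ran from -0.018 in oxaliplatin/topotecan to 0.204 in D5W/topotecan, beside -0.125 and 0.031 over all genes. In topotecan/D5W, 17 members fell and 2 rose, or 12.4% falling, against 4.15% of all genes falling and 3.01% rising. In D5W/topotecan, 14 fell and 9 rose (10.2% fell), against 4.72% of all genes falling and 5.39% rising. Oxaliplatin alone gave 10 falling and 8 rising members in oxaliplatin/NaCl, against 4.75% and 5.22% of all genes. NaCl/oxaliplatin gave 11 falling and 8 rising members, against 5.31% and 5.17% of all genes. In topotecan/oxaliplatin, 18 members fell (13.1%) and 15 rose (10.9%), against 7.61% and 10.6% of all genes. In oxaliplatin/topotecan, 14 members fell (10.2%) and 16 rose (11.7%), against 8.85% and 8.26%. The falling share was thus furthest above the share of all genes in topotecan/D5W, and the rising share lay near it in topotecan/oxaliplatin. No test of these shares was made.

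**Figure D2:**
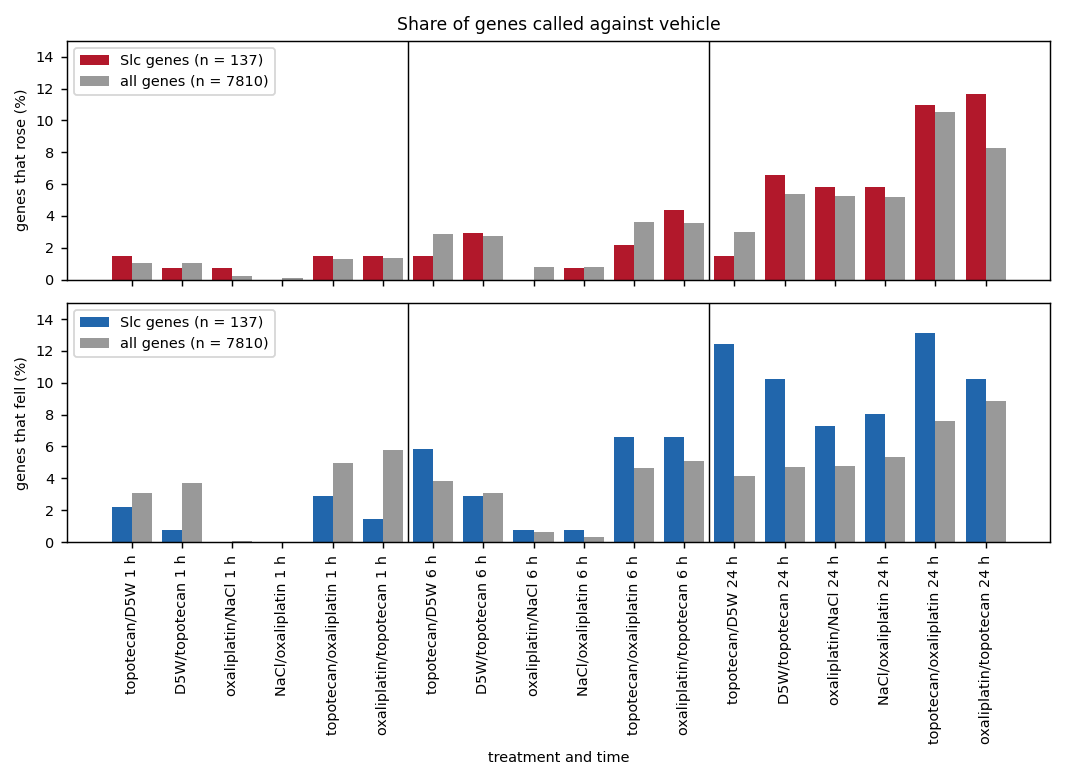
Share of genes called in each of the 18 comparisons with vehicle, as a percent of the 137 Slc genes (coloured bars, left of each pair) and of all 7810 genes (grey bars), with rising genes in the upper panel and falling genes in the lower. At 24 h the falling Slc share was 12.4% in topotecan/D5W and 13.1% in topotecan/oxaliplatin, where all genes gave 4.15% and 7.61%.

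The 8 members that fell in all 6 treatments at 24 h were Slc11a2, Slc14a1, Slc22a4, Slc25a21, Slc25a37, Slc38a5, Slc43a1 and Slc6a20a, where 197 of all genes did so (2.52%). Slc43a1, a transporter of large neutral amino acids, had the lowest difference of all members in both topotecan groups and both combinations. With oxaliplatin alone Slc25a21 was lower, at -2.57 in NaCl/oxaliplatin and -2.23 in oxaliplatin/NaCl. At 24 h the values of Slc43a1 were 9.32, 10.39 and 9.24 in topotecan/D5W rats, 10.06, 10.37, 10.28 and 9.70 in NaCl/oxaliplatin rats and 9.61, 9.30, 8.63 and 9.21 in topotecan/oxaliplatin rats, against 12.49, 12.53, 12.56 and 12.42 in NaCl/D5W rats. In the other order they were 9.59, 9.19, 8.72 and 9.22 in D5W/topotecan rats, 9.89, 9.80, 10.39 and 10.03 in oxaliplatin/NaCl rats and 9.19, 9.54, 9.63 and 8.14 in oxaliplatin/topotecan rats, against 12.18, 12.57 and 11.84 in D5W/NaCl rats. Every treated rat lay below every vehicle rat, in both orders. The difference was -3.31 in topotecan/oxaliplatin (SE 0.18, 9.94-fold lower, adjusted p = 3.73e-18) and -3.07 in oxaliplatin/topotecan, -2.85 in topotecan/D5W and -3.02 in D5W/topotecan, and -2.40 in NaCl/oxaliplatin and -2.17 in oxaliplatin/NaCl. An exact two-sided permutation test over rats gave p = 0.0286 where both groups held 4 rats and 0.0571 where one held 3, the smallest values these group sizes allow, for every non-overlapping comparison given by rat in this text. Groups that do not overlap always give these smallest values, so the test adds nothing to the lack of overlap.

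Slc25a37 (mitoferrin-1) carries iron into the mitochondria of red cell precursors. At 24 h it had 9.43, 10.12 and 9.27 in topotecan/D5W rats, 10.79, 10.37, 10.57 and 10.36 in NaCl/oxaliplatin rats and 9.81, 9.66, 9.15 and 9.60 in topotecan/oxaliplatin rats, against 12.02, 12.05, 12.14 and 11.78 in NaCl/D5W rats. No treated rat reached the vehicle range, and the NaCl/oxaliplatin rats lay above the rats of both topotecan groups. The differences were -2.39 (SE 0.16), -1.48 (SE 0.14) and -2.44 (SE 0.14, adjusted p = 2.36e-17). Slc11a2, the divalent metal transporter that brings iron out of endosomes, had 8.39, 8.66, 8.65 and 8.85 in topotecan/oxaliplatin rats, against 10.71, 10.87, 11.01 and 10.66 in NaCl/D5W rats. It was lower in all 4 treated rats, and its difference of -2.18 (SE 0.13, 4.52-fold) lay close to those of the other treatments, which ran from -2.12 to -2.0.

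Slc25a21, the mitochondrial carrier of oxodicarboxylates, had 5.87, 6.65, 5.97 and 6.33 in topotecan/oxaliplatin rats at 24 h, against 9.19, 9.13, 9.33 and 9.01 in NaCl/D5W rats. In the reverse order it had 6.52, 6.69, 6.56 and 6.37 in oxaliplatin/topotecan rats, against 8.64, 9.10 and 9.19 in D5W/NaCl rats. Both combinations lay below their vehicle in every rat, with a difference of -2.96 (SE 0.18, 7.79-fold lower) for topotecan first and -2.44 (SE 0.21) for oxaliplatin first. Slc22a4, an organic cation transporter of ergothioneine that in humans is expressed in red cell precursors, had 7.84, 6.96, 6.64 and 7.23 in D5W/topotecan rats, 7.65, 7.54, 9.07 and 8.14 in oxaliplatin/NaCl rats and 7.22, 7.90, 7.83 and 6.82 in oxaliplatin/topotecan rats, against 9.91, 10.40 and 9.75 in D5W/NaCl rats. One oxaliplatin/NaCl rat, at 9.07, came near the vehicle range without entering it. The differences were -2.85, -1.92 and -2.58 (SE 0.28 each).

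The other members that fell everywhere at 24 h carry amino acids and urea. Slc38a5, a glutamine and asparagine transporter, had 9.75, 8.75, 9.17 and 9.2 in topotecan/oxaliplatin rats, against 11.28, 11.44, 11.54 and 11.41 in NaCl/D5W rats (difference -2.20, SE 0.17). Slc6a20a, a proline transporter, had 7.03, 8.16, 7.53 and 7.42 in topotecan/oxaliplatin rats, against 9.23, 9.35, 9.52 and 9.38 in NaCl/D5W rats (-1.84, SE 0.15). In both genes the groups were more than 1 log2 unit apart at their nearest rats. Slc14a1, the urea transporter of the red cell, had 7.71, 7.93, 7.39 and 8.08 in topotecan/oxaliplatin rats, against 9.46, 9.72, 9.61 and 9.52 in NaCl/D5W rats (-1.80, SE 0.23). Its call in D5W/topotecan (-1.31) was lost without D5W/topotecan rat 89 (-0.97), and as the mean of its probe sets (-0.94), whereas the calls of the other 7 genes and of Slc14a1 in the remaining treatments held without any 1 rat.

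**Figure D3:**
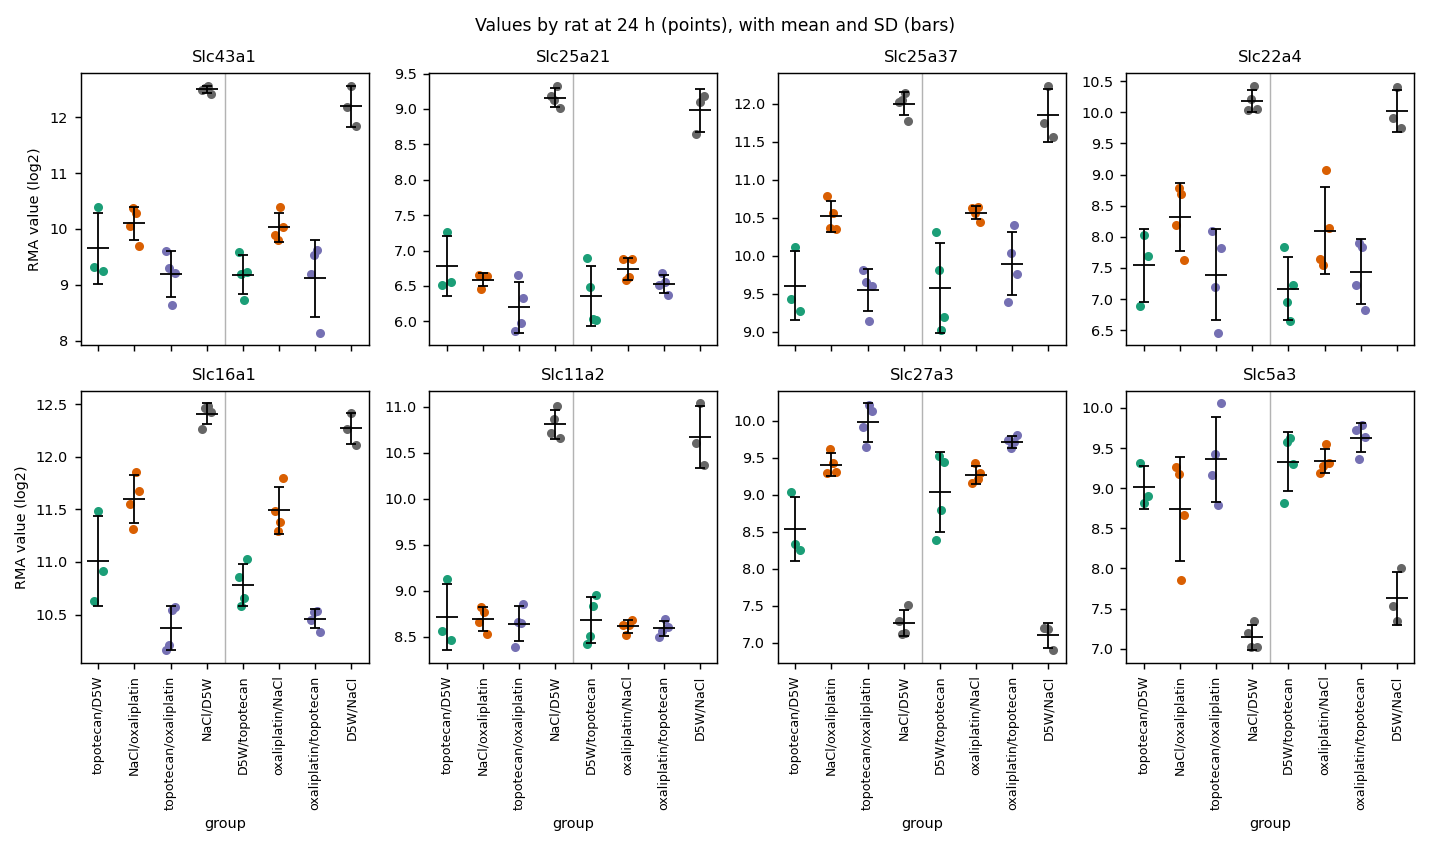
Values by rat at 24 h (points, log2 scale) for 8 members, with group mean and SD (black bars). On each side of a panel, the treatments stand left of their vehicle group in grey. The treated rats lie below the vehicle rats in Slc43a1, Slc25a21, Slc25a37, Slc22a4, Slc16a1 and Slc11a2, and above them in Slc27a3 and Slc5a3.

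RefSeq promoters of build GRCr8, 250 bases before to 50 bases after the gene start, were matched for 115 of the 137 members, and for 7 of the 8 members that fell in all 6 treatments. The 4 promoters below are shown to set the member of largest fall beside those of other members that fell and hold AGATAA or TGATAA. These are forms of the GATA motif, the letters read by the red cell factor GATA1. Forms of the motif that end in G were not searched. The choice was made after the matches were seen. Capitals mark AGATAA or TGATAA on either strand (the other strand reads TTATCT or TTATCA). Slc43a1 lies at chr3:90327072-90327371 on the plus strand, Slc25a21 at chr6:80437671-80437970, Slc38a5 at chrX:16894421-16894720 and Slc14a1 at chr18:73864594-73864893, these on the minus strand.
Slc43a1: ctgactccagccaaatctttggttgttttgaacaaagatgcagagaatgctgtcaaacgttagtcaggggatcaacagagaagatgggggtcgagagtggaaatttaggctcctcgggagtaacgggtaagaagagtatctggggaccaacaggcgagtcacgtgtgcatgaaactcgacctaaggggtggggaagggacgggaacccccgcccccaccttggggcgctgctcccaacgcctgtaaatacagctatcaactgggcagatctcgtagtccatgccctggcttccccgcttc
Slc25a21: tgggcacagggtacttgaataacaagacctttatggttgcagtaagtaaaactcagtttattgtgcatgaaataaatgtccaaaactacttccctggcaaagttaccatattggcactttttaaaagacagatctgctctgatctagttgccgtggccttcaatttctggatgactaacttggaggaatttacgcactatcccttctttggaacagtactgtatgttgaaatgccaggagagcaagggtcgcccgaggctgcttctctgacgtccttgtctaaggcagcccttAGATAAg
Slc38a5: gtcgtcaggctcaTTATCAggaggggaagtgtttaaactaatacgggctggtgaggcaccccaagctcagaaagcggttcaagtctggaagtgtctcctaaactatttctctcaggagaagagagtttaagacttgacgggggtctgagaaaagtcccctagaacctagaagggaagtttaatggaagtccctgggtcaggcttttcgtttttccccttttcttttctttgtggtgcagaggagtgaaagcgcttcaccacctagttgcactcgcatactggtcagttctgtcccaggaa
Slc14a1: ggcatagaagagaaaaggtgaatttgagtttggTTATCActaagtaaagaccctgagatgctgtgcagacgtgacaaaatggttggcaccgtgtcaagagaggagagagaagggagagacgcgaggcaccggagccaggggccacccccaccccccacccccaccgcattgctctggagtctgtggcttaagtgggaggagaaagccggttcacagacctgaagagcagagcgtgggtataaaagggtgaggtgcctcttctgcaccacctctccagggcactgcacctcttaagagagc
The promoter of Slc43a1 held no match to the forms searched, and the other 3 held 1 each. The Slc43a1 promoter does hold ctatca, which reads TGATAG on the other strand, a form that was not searched. Slc43a1 is therefore not shown to lack a GATA motif. Over the members with a promoter, 18 of 115 (15.7%) held AGATAA or TGATAA, against 5472 of 27457 genes (19.9%), and 3 of the 7 matched members that fell in all 6 treatments did. The letters TATAAA, also searched on both strands, were in 8 of 115 members and 15.3% of all genes. A match describes these letters and is not a binding site.

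Beyond those 8, further carriers of amino acids and of lactate fell in some treatments at 24 h. Slc16a10, a transporter of aromatic amino acids, had 8.89, 8.90, 8.24 and 8.92 in topotecan/oxaliplatin rats, against 10.59, 10.58, 10.84 and 10.59 in NaCl/D5W rats (-1.92, SE 0.18). It fell in 5 treatments and had -0.73 in oxaliplatin/NaCl, under the fold threshold. Its call in NaCl/oxaliplatin (-1.03) was lost without NaCl/D5W rat 11 (-0.96) or NaCl/oxaliplatin rat 84 (-0.86). Slc16a1 (MCT1), which moves lactate and other monocarboxylates, had 10.86, 10.58, 10.66 and 11.03 in D5W/topotecan rats, 11.48, 11.29, 11.38 and 11.80 in oxaliplatin/NaCl rats and 10.45, 10.52, 10.53 and 10.33 in oxaliplatin/topotecan rats, against 12.26, 12.42 and 12.11 in D5W/NaCl rats. All treated rats lay below the vehicle rats, with the oxaliplatin/NaCl rats nearest. Slc16a1 fell in D5W/topotecan (-1.48, SE 0.15) and oxaliplatin/topotecan (-1.81, SE 0.15), and its difference of -0.78 in oxaliplatin/NaCl (adjusted p = 4.22e-05) was under the fold threshold.

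By the probe sets used, the glycine transporter Slc6a9 and the large neutral amino acid transporter Slc7a5 fell in the same 3 treatments, topotecan/D5W (-1.20 and -1.21), D5W/topotecan (-1.25 and -1.18) and topotecan/oxaliplatin (-1.18 and -1.10). Slc6a9 had 3 probe sets. The paper lists another of them as lower at 24 h in all 6 treatments, by a fold above 2 in each. Slc7a1, a carrier of arginine and lysine, fell in both combinations (-1.10 with topotecan first, -1.02 with oxaliplatin first) and ranged from -0.61 to -0.45 with single agents. Slc25a38, which brings glycine into mitochondria, fell in topotecan/D5W (-1.04) and topotecan/oxaliplatin (-1.05). Slc20a1, a sodium-phosphate cotransporter, fell in NaCl/oxaliplatin (-1.11) and both combinations (-1.14 and -1.08). The other members that fell at 24 h were Slc25a51l1 and Slc46a3, in 4 treatments each, Slc22a21, in 3, and Slc22a23, Slc26a8 and Slc30a10, in 1 each.

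Several of these smaller falls lay near the fold threshold and lost their call when 1 rat was left out. Slc6a9 in topotecan/D5W had -0.88 without topotecan/D5W rat 29. Slc7a1 in oxaliplatin/topotecan had -0.92 and -0.99 without D5W/NaCl rats 17 and 18 and -0.88 and -0.99 without oxaliplatin/topotecan rats 71 and 72, and as the mean of its probe sets it was called in neither combination (-0.90 with topotecan first, -0.87 with oxaliplatin first). Slc25a38 had -1.0 and -0.97 in topotecan/D5W without NaCl/D5W rat 11 and topotecan/D5W rat 36, and -0.96 and -0.94 in topotecan/oxaliplatin without topotecan/oxaliplatin rats 59 and 60. With both vehicle groups pooled, Slc25a38 had -0.96 in topotecan/D5W and -0.97 in topotecan/oxaliplatin. Slc20a1 in oxaliplatin/topotecan had -0.95 without D5W/NaCl rat 18. Slc25a51l1 had -0.99 in D5W/topotecan without D5W/NaCl rat 18 and -0.92 in topotecan/D5W without topotecan/D5W rat 29, and Slc22a21 had -0.91 in D5W/topotecan without D5W/NaCl rat 18. Slc46a3 in NaCl/oxaliplatin ranged from -0.99 to -0.94 without NaCl/D5W rat 11 or 12 or NaCl/oxaliplatin rat 77 or 84. Slc26a8, a sulfate transporter relative, was called in oxaliplatin/NaCl (-1.02) and had -0.83 without the arrays high in muscle markers, -0.94 and -0.86 without D5W/NaCl rats 17 and 18 and -0.91 without oxaliplatin/NaCl rat 42. After a second quantile normalization Slc16a10 in NaCl/oxaliplatin had -0.97, Slc25a38 in topotecan/oxaliplatin -0.99, and Slc20a1 and Slc7a1 in oxaliplatin/topotecan -0.93 and -0.92. Each of these values lay below the fold threshold.

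Red cell precursors use 16 of the members, by a list written from general knowledge but with earlier results of these data known. The list holds every member that fell in all 6 treatments at 24 h except Slc6a20a, so its falls are not separate support. At 24 h the list had 11 falling members in topotecan/D5W, 9 in D5W/topotecan, 7 in oxaliplatin/NaCl, 8 in NaCl/oxaliplatin, 10 in topotecan/oxaliplatin and 8 in oxaliplatin/topotecan. Its median difference ran from -1.49 in topotecan/oxaliplatin to -0.76 in oxaliplatin/NaCl, where the median of all genes lay between -0.13 and 0.05 over the 6 treatments. The nucleoside transporter Slc29a1 was the sole member of the list that rose. The glucose transporter Slc2a1, the heme transporter Slc48a1 and the mitochondrial carriers Slc25a39 and Slc25a28 were called in no treatment at 24 h, and their differences ran from 0.02 to 0.75. Of 10 red cell precursor markers that are no solute carriers, 6 were measured, and 4 or 5 of the 6 fell in each treatment. Their mean level had group medians of 10.9 to 11.9 in the treated groups at 24 h, against 13.1 in NaCl/D5W and 12.9 in D5W/NaCl. The part of these markers' cells in the falls of the carriers was not tested.

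Slc27a3 and Slc5a3 rose in all 6 treatments at 24 h, where 170 of all genes did (2.18%). Slc27a3, a member of the fatty acid transport family with acyl-CoA synthetase activity, had 9.04, 8.33 and 8.26 in topotecan/D5W rats, 9.30, 9.62, 9.43 and 9.31 in NaCl/oxaliplatin rats and 9.92, 9.65, 10.22 and 10.14 in topotecan/oxaliplatin rats, against 7.30, 7.12, 7.14 and 7.51 in NaCl/D5W rats. The 3 treatments stood in this order with no overlap between them, and all lay above vehicle. The differences were 1.27 (SE 0.15), 2.14 (SE 0.14) and 2.71 (SE 0.14, 6.56-fold, adjusted p = 1.61e-18). Slc5a3, the sodium/myo-inositol cotransporter, had 9.73, 9.37, 9.79 and 9.64 in oxaliplatin/topotecan rats, against 7.53, 7.35 and 8.00 in D5W/NaCl rats (2.01, SE 0.25). It was higher in every treated rat, and its differences in the other treatments ran from 1.60 to 2.22.

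Slc6a4, the serotonin transporter of platelets and their precursors, had 10.58, 9.33 and 10.48 in topotecan/D5W rats, 10.16, 9.99, 10.00 and 10.33 in NaCl/oxaliplatin rats and 10.61, 11.23, 11.48 and 11.30 in topotecan/oxaliplatin rats, against 9.60, 9.31, 9.31 and 9.69 in NaCl/D5W rats. One topotecan/D5W rat, at 9.33, lay inside the vehicle range and apart from the other 2 of its group. The gene rose in topotecan/oxaliplatin (1.68, SE 0.23), D5W/topotecan (1.44) and oxaliplatin/topotecan (1.30), and had 0.66 in topotecan/D5W (adjusted p = 0.027, exact permutation p = 0.171), 0.64 in NaCl/oxaliplatin (adjusted p = 0.0127) and 0.97 in oxaliplatin/NaCl (adjusted p = 0.00751). The 6 measured of 9 platelet and megakaryocyte markers had a median difference of 0.18 in topotecan/D5W, 0.47 in D5W/topotecan, 0.49 in oxaliplatin/NaCl, 0.34 in NaCl/oxaliplatin, 0.78 in topotecan/oxaliplatin and 0.59 in oxaliplatin/topotecan. The mean level of the 7 measured mast cell and basophil markers had group medians from 9.03 in oxaliplatin/NaCl to 10.3 in D5W/topotecan. The vehicle medians were 8.92 in NaCl/D5W and 8.69 in D5W/NaCl, where 1 rat reached 9.72. The part of either set of markers in the result was not tested.

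The nucleoside carriers Slc28a2 and Slc29a1 were high at 24 h, and of the 5 measured nucleoside and folate carriers they were the ones called. Slc28a2, the concentrating purine nucleoside transporter, had 10.37, 10.31, 10.22 and 10.19 in topotecan/oxaliplatin rats, against 8.63, 9.12, 8.53 and 8.92 in NaCl/D5W rats (1.47, SE 0.19). Slc29a1, the equilibrative nucleoside transporter, had 9.20, 9.41, 9.62 and 9.68 in oxaliplatin/topotecan rats, against 8.05, 8.25 and 7.85 in D5W/NaCl rats (1.43, SE 0.20). In both genes all treated rats exceeded all vehicle rats. Each rose in 4 treatments, with differences of 0.76 to 0.94 in the other 2. The Slc29a1 call in D5W/topotecan (1.01) was lost without D5W/NaCl rat 24 (0.91) or D5W/topotecan rat 96 (0.95).

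The other 12 members that rose at 24 h did so in 1 to 5 treatments. The calcium exchanger Slc24a3 rose in 5 (1.01 to 1.40) and had 0.60 in topotecan/D5W. Slc15a3, the lysosomal peptide transporter, rose in 4 (1.03 to 1.66), Slc22a18 in 4 (1.03 to 1.13) and the creatine transporter Slc16a12 in 4 (1.06 to 1.34). The glutamate transporter Slc1a3, the potassium-chloride cotransporter Slc12a7 and the lactate exporter Slc16a3 rose in 3 each, the hexose transporters Slc2a3 and Slc2a6, the taurine transporter Slc6a6 and the zinc transporter Slc39a1 in 2 each, and the peptide transporter Slc15a2 in 1. Over the macrophage, endothelium and osteoblast markers, which are no solute carriers, the median differences at 24 h ran from 0.63 to 0.91, from 0.52 to 1.03 and from 0.97 to 1.49, and their part in these rises was not tested. In oxaliplatin/NaCl 9 of 11 muscle markers also rose, and without the arrays high in them Slc24a3 had 0.86 and Slc2a3 0.92, both under the fold threshold.

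Many of these rises also lay near the fold threshold and lost their call when 1 rat was left out. In oxaliplatin/NaCl, Slc24a3 had 0.94 without D5W/NaCl rat 18 and 0.98, 0.94 and 0.97 without oxaliplatin/NaCl rats 41, 42 and 48, and Slc2a3 had 0.96 to 0.99 without D5W/NaCl rat 18 or 24 or oxaliplatin/NaCl rat 41, 42 or 47. Slc16a3 there had 0.98 without D5W/NaCl rat 18, Slc15a3 had 0.91 without D5W/NaCl rat 24 and 0.90 without oxaliplatin/NaCl rat 48, and Slc22a18 had 0.98 without either of these 2 rats. In D5W/topotecan, Slc15a3 had 0.96 without D5W/NaCl rat 24 and 0.99 without D5W/topotecan rat 89, Slc22a18 had 0.96 to 1.00 without D5W/NaCl rat 24 or D5W/topotecan rat 95 or 96, and Slc16a12 and Slc24a3 lost their calls without D5W/topotecan rat 95 (0.98 and 0.97) or 96 (0.97 and 0.94), Slc16a12 also without D5W/NaCl rat 17 (1.00) and Slc24a3 without D5W/NaCl rat 18 (0.99). In NaCl/oxaliplatin, Slc24a3 had 0.97 to 0.99 without NaCl/D5W rat 5 or 6 or NaCl/oxaliplatin rat 84, and Slc15a2 had 0.92 without NaCl/D5W rat 5 and 0.91 without NaCl/oxaliplatin rat 83. Slc39a1 in oxaliplatin/topotecan had 0.94 without D5W/NaCl rat 24 and 0.99 without oxaliplatin/topotecan rat 65. The calls of Slc1a3, Slc12a7, Slc2a6 and Slc6a6, and those of Slc15a3, Slc16a12, Slc22a18 and Slc24a3 in both combinations, held without any 1 rat. As the mean of a gene's probe sets, calls were lost in oxaliplatin/topotecan by Slc1a3 (0.87), Slc16a12 (0.87) and Slc2a3 (0.93), in oxaliplatin/NaCl by Slc2a3 (0.79) and in D5W/topotecan by Slc16a12 (0.87). After a second quantile normalization, calls were lost by Slc16a12 in D5W/topotecan (0.84) and NaCl/oxaliplatin (0.98), Slc15a2 in NaCl/oxaliplatin (0.96) and Slc29a1 in D5W/topotecan (0.99).

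The combinations were set against each single agent of the same fit at 24 h. Topotecan/oxaliplatin differed from topotecan/D5W in 2 members (3.12% of all genes called), both higher, Slc27a3 by 1.44 (SE 0.15, adjusted p = 4.04e-09) and Slc6a4 by 1.02 (SE 0.25, adjusted p = 9.15e-04). The Slc6a4 call was lost without topotecan/D5W rat 35, the rat at 9.33 (0.62), and without topotecan/oxaliplatin rat 54 (1.00), 59 (0.92) or 60 (0.98). Topotecan/oxaliplatin differed from NaCl/oxaliplatin in 2 members (1.7% of all genes), with Slc6a4 higher by 1.04 and Slc16a1 lower (-1.23, SE 0.13, adjusted p = 8.80e-09). Here Slc6a4 was lost without topotecan/oxaliplatin rat 59 (0.93) or 60 (0.99), or NaCl/oxaliplatin rat 78 (0.99) or 83 (1.00). The count of members was 6 without NaCl/oxaliplatin rat 84 and 5 without topotecan/oxaliplatin rat 53, whose array was high in muscle markers.

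Oxaliplatin/topotecan differed from oxaliplatin/NaCl in 1 member (1.19% of all genes), Slc16a1, which was lower (-1.03, SE 0.14, adjusted p = 1.73e-06). That call was lost without oxaliplatin/NaCl rat 48 (-0.92) or oxaliplatin/topotecan rat 72 (-0.98), and the count was 2 without oxaliplatin/topotecan rat 66 or 71. Oxaliplatin/topotecan differed from D5W/topotecan in 0 members by limma (0.73% of all genes), although 18 members had an adjusted p under 0.01 below the fold threshold and 50 an unadjusted p under 0.05. The count was 1 without D5W/topotecan rat 89 or 90 or oxaliplatin/topotecan rat 71 or 72. Slc16a1 was thus lower in both combinations than in oxaliplatin alone. Against topotecan alone it was -0.64 in topotecan/oxaliplatin (adjusted p = 3.50e-04) and -0.32 in oxaliplatin/topotecan (adjusted p = 0.0865).

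Topotecan alone was also compared with oxaliplatin alone at 24 h, a comparison added after the values had been seen. No member was called in topotecan/D5W against NaCl/oxaliplatin (0.896% of all genes), where 22 had an adjusted p under 0.01 and 57 an unadjusted p under 0.05. None was called in D5W/topotecan against oxaliplatin/NaCl (0.768% of all genes), where 9 and 39 did. Slc25a37 and Slc16a10 came near 2-fold in both. Slc25a37 was lower with topotecan in both pairs, at -0.92 (SE 0.16, adjusted p = 2.04e-05) in topotecan/D5W against NaCl/oxaliplatin and -0.98 (SE 0.19, adjusted p = 3.29e-04) in D5W/topotecan against oxaliplatin/NaCl, and Slc16a10 was at -0.89 and -0.96. Slc16a1 had -0.59 and -0.70, with adjusted p of 0.00119 and 5.40e-04. The mitochondrial ADP/ATP carrier Slc25a4 was higher with topotecan, by 0.62 and 0.59 (adjusted p = 1.27e-05 and 3.36e-05). Without topotecan/D5W rat 35 the first comparison had 5 called members, 2 without NaCl/oxaliplatin rat 84 and 1 without topotecan/D5W rat 29 or 36 or NaCl/oxaliplatin rat 77. Without D5W/topotecan rat 89 the second had 4, 2 without oxaliplatin/NaCl rat 41 or 42, the arrays high in muscle markers, and 1 without D5W/topotecan rat 90 or oxaliplatin/NaCl rat 48.

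At 1 h few members changed, and most that did were called in groups given topotecan. In topotecan/D5W, 2 members rose and 3 fell, against 1.04% and 3.06% of all genes. In D5W/topotecan, 1 rose and 1 fell, against 1.05% and 3.7%. Oxaliplatin/NaCl had 1 rising and 0 falling members, against 0.256% and 0.0384% of all genes. NaCl/oxaliplatin had 0 of either by limma, against 0.115% and 0%, with 0 members at an adjusted p under 0.01 and 20 at an unadjusted p under 0.05. The combinations gave 2 rising and 4 falling members in topotecan/oxaliplatin, against 1.29% and 4.97%, and 2 rising and 2 falling in oxaliplatin/topotecan, against 1.33% and 5.8%. These counts of 0 to 4 members of 137 were too small to set apart from the background.

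Both mitochondrial aspartate/glutamate carriers were called at 1 h in topotecan/D5W and topotecan/oxaliplatin. Slc25a12 (aralar) had 7.84, 7.92, 7.82 and 7.85 in topotecan/oxaliplatin rats, against 9.46, 9.27, 8.97 and 9.14 in NaCl/D5W rats (-1.35, SE 0.08, adjusted p = 3.39e-17). Slc25a13 (citrin) had 7.85, 8.03, 8.24 and 8.2 in topotecan/oxaliplatin rats, against 9.42, 9.49, 9.26 and 9.46 in NaCl/D5W rats (-1.33, SE 0.10). The groups were over 1 log2 unit apart at their nearest rats in both genes. In topotecan/D5W the differences were -1.15 and -1.27, with -0.70 and -0.53 in D5W/topotecan and -0.93 and -0.63 in oxaliplatin/topotecan, under the fold threshold although the adjusted p was under 0.01 in these 4. After a second quantile normalization Slc25a12 had -1.0 in topotecan/D5W and was not called. At 24 h Slc25a12 ranged from -0.29 to -0.09 over the 6 treatments.

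At 1 h 4 members rose in some treatment, the zinc exporter Slc30a1 described below among them. The lactate exporter Slc16a3 (MCT4) had 11.11, 9.99, 10.21 and 10.59 in topotecan/oxaliplatin rats, against 9.25, 9.29, 8.90 and 8.99 in NaCl/D5W rats (1.37, SE 0.16), and rose in topotecan/D5W by 1.09. Slc19a2, the thiamine transporter, had 9.47, 9.49, 9.74 and 9.83 in oxaliplatin/topotecan rats, against 8.27, 8.30, 8.47 and 8.63 in D5W/NaCl rats (1.22, SE 0.12), and rose in D5W/topotecan by 1.31. Neither gene had an overlap between its groups. Slc5a3 had 8.82, 8.41, 8.56 and 8.65 in oxaliplatin/NaCl rats and 8.31, 8.33, 8.97 and 8.89 in oxaliplatin/topotecan rats, against 7.40, 7.49, 7.69 and 7.03 in D5W/NaCl rats. It was the 1 member called with oxaliplatin alone at 1 h (1.2, SE 0.23, adjusted p = 0.00103), while in NaCl/oxaliplatin it had -0.41 (adjusted p = 0.59), and the difference between the orders of oxaliplatin was not tested. With both vehicle groups pooled, Slc5a3 had 0.98 in oxaliplatin/NaCl, under the fold threshold.

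The other members that fell at 1 h were Slc22a23, an organic ion transporter relative without a known substrate, Slc10a7, a bile acid transporter relative, and the lysosomal carrier Slc49a4. Slc22a23 had 7.48, 7.41, 7.61 and 7.85 in oxaliplatin/topotecan rats, against 8.37, 8.69, 9.00 and 8.76 in D5W/NaCl rats (-1.12, SE 0.16). All treated rats were lower. It also fell in D5W/topotecan (-1.11) and topotecan/oxaliplatin (-1.08), the last call being lost without NaCl/D5W rat 2 (-0.99). After a second quantile normalization of the arrays, Slc22a23 had -0.95 in D5W/topotecan, -0.85 in topotecan/oxaliplatin and -0.84 in oxaliplatin/topotecan, all under the fold threshold, and Slc49a4 had -0.99 in oxaliplatin/topotecan, where it had been called at -1.27.

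The order of infusion was tested at 1 h as a difference of differences from vehicle. Times ran from the end of dosing, so more time had passed since a drug given first than since one given second. Order and time since infusion therefore cannot be told apart. For topotecan alone, first minus second, 0 members were called by limma (1.52% of all genes), with 7 at an adjusted p under 0.01 and 28 at an unadjusted p under 0.05. The count was 1 without NaCl/D5W rat 7. For the combination, topotecan first minus second, 1 was called (1.42% of all genes), Slc25a21 at -1.02 (SE 0.27, adjusted p = 0.00368). This call was lost when any 1 of 6 rats was left out, at -0.92 to -0.98 without NaCl/D5W rat 2 or 8, D5W/NaCl rat 13, topotecan/oxaliplatin rat 49 or 56, or oxaliplatin/topotecan rat 68, and the count was 2 without topotecan/oxaliplatin rat 50 or 55. Below the fold threshold, Slc25a13 was lower with topotecan first in both tests (-0.74 for topotecan alone, -0.70 for the combination), Slc25a12 had -0.45 for topotecan alone (adjusted p = 0.00657) and -0.42 for the combination (adjusted p = 0.0122), and Slc49a4 (0.66 and 0.86) and the vitamin C transporter Slc23a2 (0.67 and 0.72) were higher in both. The pair of tests used the same vehicle rats. The topotecan/D5W rats shared the code columns of their vehicle and the D5W/topotecan rats did not. For topotecan alone, order and code column therefore cannot be told apart, whereas both combinations lay in the same columns.

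At 6 h topotecan again gave more called members than oxaliplatin, and the same held for all genes. In topotecan/D5W 2 rose and 8 fell (1.46% and 5.84%), against 2.84% and 3.82% of all genes. In D5W/topotecan 4 rose and 4 fell (2.92% each), against 2.71% and 3.1%. Oxaliplatin/NaCl had 0 rising and 1 falling member (0% and 0.73%), against 0.819% and 0.653%. NaCl/oxaliplatin had 1 and 1 (0.73% each), against 0.781% and 0.333%. Topotecan/oxaliplatin had 3 rising and 9 falling members (2.19% and 6.57%), against 3.65% and 4.67%. Oxaliplatin/topotecan had 6 and 9 (4.38% and 6.57%), against 3.57% and 5.1%. These shares were not tested. After a second quantile normalization topotecan/oxaliplatin had 4 rising and 4 falling members, with both vehicle groups pooled 2 and 5, and without the array high in muscle markers 3 and 6. D5W/topotecan had 5 called members in all without D5W/topotecan rat 93, instead of 8. NaCl/oxaliplatin had 1 instead of 2 without NaCl/D5W rat 3 or NaCl/oxaliplatin rat 76 or 82, and oxaliplatin/NaCl had 2 instead of 1 without D5W/NaCl rat 21 or 22 and 3 without oxaliplatin/NaCl rat 46.

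Slc46a3, a lysosomal carrier, was the 1 member that changed in all 6 treatments at 6 h, where 20 of all genes fell in all 6 (0.256%). It had 6.16, 6.28, 6.17 and 6.17 in topotecan/oxaliplatin rats, against 7.31, 7.11, 7.75 and 7.50 in NaCl/D5W rats (-1.22, SE 0.13), and 5.56, 5.94, 5.45 and 5.71 in oxaliplatin/topotecan rats, against 7.33, 7.19, 7.21 and 7.38 in D5W/NaCl rats (-1.61, SE 0.14). All rats of both combinations lay below all their vehicle rats. The differences with single agents were -1.06 in topotecan/D5W, -1.10 in D5W/topotecan, -1.37 in oxaliplatin/NaCl and -1.08 in NaCl/oxaliplatin. Without NaCl/D5W rat 9 the call was lost in topotecan/D5W (-0.95) and NaCl/oxaliplatin (-0.97), and in NaCl/oxaliplatin also without NaCl/oxaliplatin rat 76 (-0.96). With both vehicle groups pooled, the call in topotecan/D5W was lost as well (-0.99). The gene stayed low at 24 h, with differences from -1.30 to -0.75.

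Slc25a21 had the lowest difference of the members at 6 h in topotecan/D5W and both combinations, while Slc14a1 had it in D5W/topotecan and Slc46a3 in both oxaliplatin groups. Slc25a21 had 7.25, 7.05, 7.06 and 7.05 in topotecan/oxaliplatin rats, against 8.91, 8.94, 8.82 and 9.23 in NaCl/D5W rats (-1.87), and 7.04, 6.39, 7.51 and 7.07 in oxaliplatin/topotecan rats, against 8.94, 8.76, 9.01 and 8.83 in D5W/NaCl rats (-1.88). Every treated rat was at least 1 unit below the vehicle rats. It fell in both topotecan groups (-1.71 and -1.47), and had -0.85 in oxaliplatin/NaCl and -0.77 in NaCl/oxaliplatin, under the fold threshold. Slc11a2 and Slc14a1 fell with topotecan at 6 h as well, Slc11a2 in both topotecan groups and both combinations (-1.21 to -1.03) and Slc14a1 in both topotecan groups and oxaliplatin/topotecan (-1.57 to -1.30). The Slc11a2 call in topotecan/oxaliplatin (-1.03) was lost without NaCl/D5W rat 4 (-0.99) or 10 (-0.96), or without topotecan/oxaliplatin rat 52 (-0.97), whose array was high in muscle markers. The Slc11a2 call in D5W/topotecan (-1.06) was lost without D5W/NaCl rat 15 (-0.99) or D5W/topotecan rat 93 (-0.94). As the mean of its probe sets Slc11a2 lost the call in topotecan/D5W (-1.0), D5W/topotecan (-0.87) and oxaliplatin/topotecan (-1.0), and after a second quantile normalization in topotecan/oxaliplatin (-0.95), so that each of its 6 h calls was lost under some alternative. Slc14a1 in topotecan/D5W had -0.89 as the mean of its probe sets. The 6 measured red cell precursor markers had 0 called at 6 h, and their mean level had group medians of 12.9 to 13.2 in the treated groups and 13.1 in both vehicle groups.

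Slc8a1, the sodium/calcium exchanger of the cell surface, fell at 6 h in the combinations. It had 6.46, 6.14, 6.33 and 6.27 in topotecan/oxaliplatin rats, against 7.63, 7.52, 7.52 and 8.18 in NaCl/D5W rats (-1.41, SE 0.18), and 6.29, 6.19, 6.68 and 6.16 in oxaliplatin/topotecan rats, against 7.41, 7.72, 8.05 and 8.08 in D5W/NaCl rats (-1.49, SE 0.20). No rat of either combination reached its vehicle range. With single agents the differences ran from -0.70 in NaCl/oxaliplatin to -0.33 in topotecan/D5W, and the difference between combination and single agents at 6 h was not tested. At 24 h the differences of Slc8a1 lay above 0, from 0.27 to 0.85, and none was called. The vesicular amine transporter Slc18a2 rose in topotecan/oxaliplatin (1.25) and in D5W/topotecan (1.03), the D5W/topotecan call being lost without D5W/NaCl rat 15 (0.90) or D5W/topotecan rat 88 (0.99) or 93 (0.89). As the mean of its probe sets Slc18a2 had 0.92 in D5W/topotecan. The mean level of the 6 measured megakaryocyte and platelet markers at 6 h had a median of 12.7 (range 12.6 to 12.8) in topotecan/oxaliplatin, against 12.0 (11.9 to 12.5) in NaCl/D5W, and of 12.7 (12.5 to 12.7) in D5W/topotecan, against 12.2 (12.1 to 12.3) in D5W/NaCl, with 0 of the 6 called. That of the 7 measured mast cell and basophil markers was 9.36 in topotecan/oxaliplatin, against 9.33 in NaCl/D5W, and 9.63 in D5W/topotecan, against 9.01 in D5W/NaCl, with overlapping ranges and 1 of the 7 called in each treatment. The part of these markers in the rise was not tested.

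Other members called at 6 h were called in 1 to 3 treatments. Slc38a5 fell in oxaliplatin/topotecan (-1.31), and Slc6a20a and Slc43a1 in topotecan/D5W (-1.17 each) and topotecan/oxaliplatin (-1.09 and -1.02), so that these members of the group that fell everywhere at 24 h were already lower. The Slc43a1 call in topotecan/oxaliplatin was lost without NaCl/D5W rat 4 (-0.99) or topotecan/oxaliplatin rat 58 (-0.96). Slc20a1 fell in topotecan/D5W (-1.14) and topotecan/oxaliplatin (-1.02), and Slc22a23 in topotecan/oxaliplatin (-1.03) and oxaliplatin/topotecan (-1.22). In topotecan/oxaliplatin, both lost their call without rat 52, the array high in muscle markers (-0.96 and -1.0), Slc20a1 also without NaCl/D5W rat 4 (-1.0) and Slc22a23 without NaCl/D5W rat 10 (-0.89). The choline transporter Slc44a1 (-1.25) and Slc25a13 (-1.24) fell in oxaliplatin/topotecan, Slc25a38 in topotecan/oxaliplatin (-1.04) and Slc22a21 in topotecan/D5W (-1.08, and -0.98 without topotecan/D5W rat 28). With both vehicle groups pooled, Slc25a38 there had -0.89 and Slc22a21 -0.97, and neither was called. Slc15a3 (1.11), Slc28a2 (1.09), Slc2a3 (1.03) and Slc5a3 (1.34) rose in oxaliplatin/topotecan, and Slc6a4 in topotecan/oxaliplatin (1.08). Of these, Slc28a2 had 0.97, 0.99 and 0.97 without D5W/NaCl rats 15 and 16 and oxaliplatin/topotecan rat 70, Slc2a3 had 0.97 and 0.96 without D5W/NaCl rat 22 and oxaliplatin/topotecan rat 70, and Slc6a4 had 0.89 and 0.98 without NaCl/D5W rat 9 and topotecan/oxaliplatin rat 57. Slc5a3 also rose in topotecan/D5W (1.10), where its difference was 0.89 without NaCl/D5W rat 3 and its limma adjusted p was 0.0122 without NaCl/D5W rat 4 and 0.0104 without topotecan/D5W rat 28 or 33.

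Zinc carriers supplied several of the early rises. Slc30a1 exports zinc from the cell and is a known target of the metal-sensing factor MTF1. At 1 h it had 8.45, 8.68, 9.44 and 9.32 in topotecan/D5W rats and 8.62, 9.08, 9.32 and 9.27 in topotecan/oxaliplatin rats, against 7.49, 7.92, 7.54 and 8.31 in NaCl/D5W rats (1.16 and 1.25, SE 0.25 each, adjusted p = 2.59e-04 and 6.95e-05). The nearest rats of the 2 sides were only slightly apart. At 6 h it had 8.98, 9.39, 9.57 and 9.48 in topotecan/oxaliplatin rats, against 7.36, 7.87, 8.35 and 8.43 in NaCl/D5W rats (1.35, SE 0.25). At 24 h it had 7.44, 7.59, 8.16 and 8.52 in topotecan/oxaliplatin rats, against 7.94, 8.03, 8.22 and 8.23 in NaCl/D5W rats (-0.18, adjusted p = 0.541, exact permutation p = 0.457), and the ranges overlapped. Slc30a1 was called in 4 of 6 treatments at 6 h and had 0.90 and 0.96 in topotecan/D5W and oxaliplatin/NaCl. Its call in NaCl/oxaliplatin (1.05) was lost without NaCl/D5W rat 3 (0.84) or NaCl/oxaliplatin rat 82 (0.99), and in D5W/topotecan (1.03) without D5W/NaCl rat 16 (0.89) or D5W/topotecan rat 93 or 94 (0.98 each).

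The promoter of Slc30a1 is shown because MTF1 reads metal response elements, whose core is TGCACNC or TGCGCNC. It lies at chr13:106021769-106022068 on the plus strand, and capitals mark matches to either core on either strand.
Slc30a1: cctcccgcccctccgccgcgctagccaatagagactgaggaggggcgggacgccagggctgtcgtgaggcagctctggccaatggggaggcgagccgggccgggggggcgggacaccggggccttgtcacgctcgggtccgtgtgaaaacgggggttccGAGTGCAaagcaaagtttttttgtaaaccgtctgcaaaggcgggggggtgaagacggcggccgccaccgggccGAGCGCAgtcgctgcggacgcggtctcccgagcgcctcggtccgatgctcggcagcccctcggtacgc
These cores were found in the promoters of 46 of 115 members (40%), against 7229 of 27457 genes (26.3%), so that their presence is common, and they are not shown to be used here.

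The zinc and iron importer Slc39a14 had 9.48, 9.37, 9.21 and 10.13 in oxaliplatin/topotecan rats at 6 h, against 8.18, 8.22, 8.2 and 8.41 in D5W/NaCl rats (1.29, SE 0.15). All treated rats were higher. It also rose in D5W/topotecan (1.08), a call lost without D5W/topotecan rat 94 (0.97), and had 0.25 in oxaliplatin/NaCl (adjusted p = 0.262). Of 24 zinc carriers listed, 14 were measured, and at 24 h the list gave 1 call or none per treatment. Slc30a10, a manganese exporter, fell in topotecan/D5W (-1.06, and -1.0 or -0.99 without NaCl/D5W rat 11 or 12), and Slc39a1 rose in topotecan/oxaliplatin (1.09) and oxaliplatin/topotecan (1.05).

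**Figure D4:**
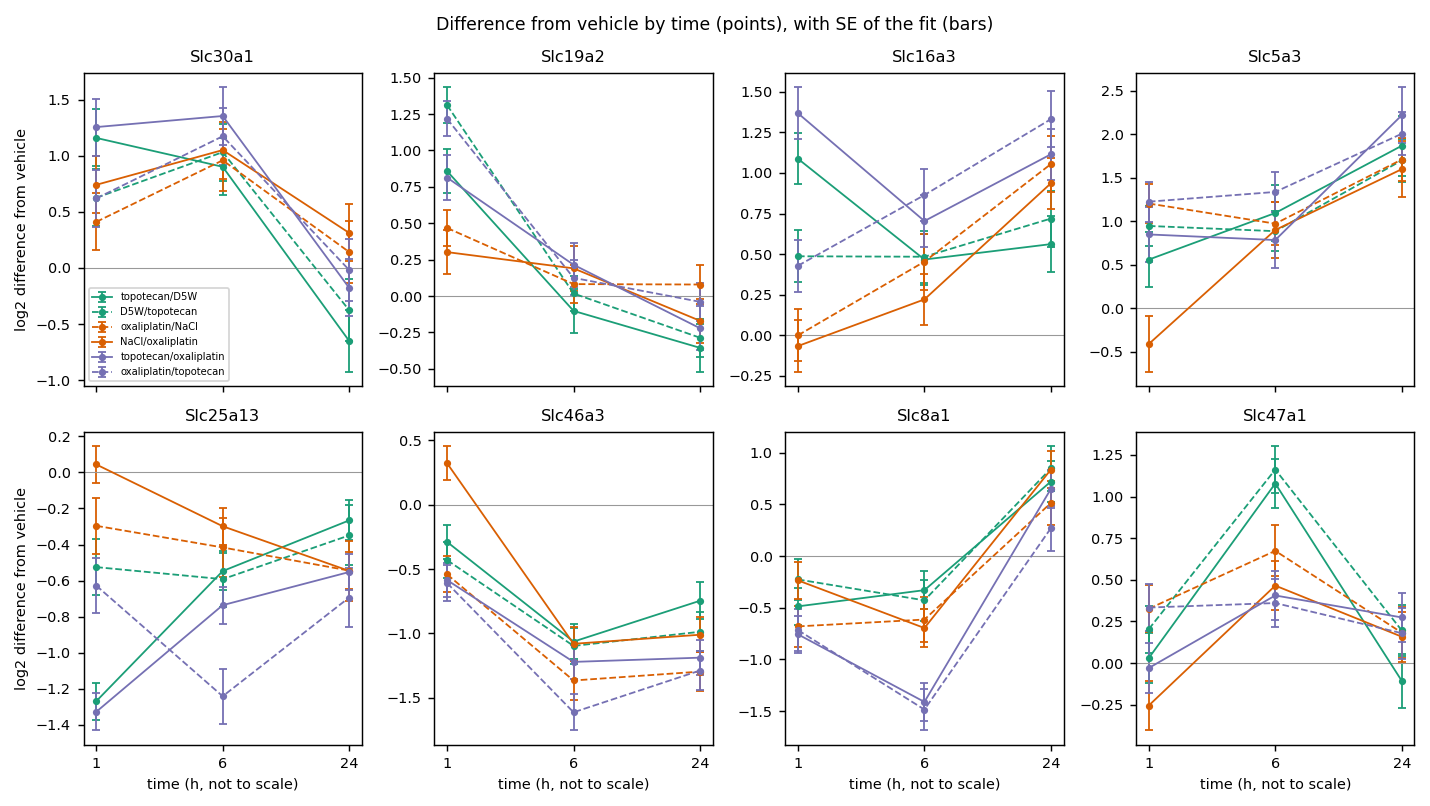
Log2 difference from the own-order vehicle group (points, with SE of the fit as bars) at 1, 6 and 24 h for 8 members, solid lines for the order compared with NaCl/D5W and broken lines for that compared with D5W/NaCl. Slc30a1 in topotecan/oxaliplatin was at 1.25, 1.35 and -0.18, and Slc47a1 was above 1 at 6 h in both topotecan groups.

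Of the carriers studied as routes for these drugs, 2 were called. Of 12 listed, 5 were measured, Slc22a3, Slc22a4, Slc31a1, Slc31a2 and Slc47a1. Slc47a1 (MATE1), an organic cation and proton exchanger, had 7.64, 7.42, 7.71 and 8.10 in D5W/topotecan rats at 6 h, against 6.42, 6.68, 6.65 and 6.47 in D5W/NaCl rats (1.16, SE 0.14, adjusted p = 1.67e-08), with all treated rats higher. It rose also in topotecan/D5W (1.08, and 0.94 without topotecan/D5W rat 34, where the call was lost, as it was after a second quantile normalization at 0.98), and had 0.41 in topotecan/oxaliplatin and 0.36 in oxaliplatin/topotecan at 6 h. The copper transporter Slc31a1 (CTR1) was never called, and at 24 h it was lower in NaCl/oxaliplatin (-0.36, adjusted p = 7.45e-04), oxaliplatin/NaCl (-0.48, adjusted p = 0.00223) and oxaliplatin/topotecan (-0.54, adjusted p = 5.23e-04), and had -0.27 in topotecan/oxaliplatin (adjusted p = 0.00786), -0.13 in D5W/topotecan (adjusted p = 0.443) and -0.02 in topotecan/D5W (adjusted p = 0.873). At 24 h Slc22a4, in all 6 treatments, was the one member of this list that was called.

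Of 16 listed transporters of these drugs without an Slc symbol, 8 were measured. Abcg2, the efflux pump for which topotecan is a substrate, fell in all 6 treatments at 24 h, from -1.71 in oxaliplatin/topotecan to -1.33 in topotecan/D5W. Abcc4, an efflux pump for nucleotides and organic anions, fell at 1 h in topotecan/D5W (-1.29) and topotecan/oxaliplatin (-1.01) and at 6 h in oxaliplatin/topotecan (-1.09). Slco2b1 rose at 24 h in D5W/topotecan (1.15), and the other 5 were called in no comparison with vehicle.

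By family number, the 27 mitochondrial carriers of Slc25 had 0 rising members at any time and 2 to 4 falling in each treatment at 24 h. Over all genes, 4.15% to 8.85% fell per treatment at 24 h. The falling ones were Slc25a21 and Slc25a37 in all 6 treatments, Slc25a51l1 in 4 and Slc25a38 in 2. The family's median difference at 24 h ran from -0.29 in oxaliplatin/topotecan to -0.02 in D5W/topotecan, beside -0.13 and 0.03 over all genes. The ADP/ATP and phosphate carriers Slc25a3, Slc25a4, Slc25a5, Slc25a24 and Slc25a25 had no call at any time. The 10 measured nucleotide sugar transporters of Slc35, which supply the Golgi, had 0 calls in all 18 comparisons, and their 24 h medians ran from -0.20 to 0.16.

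The hexose transporters of Slc2 had higher medians at 24 h, from 0.42 in topotecan/D5W to 0.95 in topotecan/oxaliplatin, with 2 of the 5 (Slc2a3 and Slc2a6) called in some treatment and none falling. In Slc6, where the substrates are amino acids and amines, Slc6a20a and Slc6a9 fell while Slc6a4 and Slc6a6 rose, and in Slc16 the lactate and aromatic amino acid carriers Slc16a1 and Slc16a10 fell while Slc16a3 and Slc16a12 rose. Slc22 was divided likewise, with Slc22a4, Slc22a21 and Slc22a23 falling and Slc22a18 rising. In Slc38, Slc38a5 alone of 5 was called. The zinc families Slc30 and Slc39 had 1 called member each at 24 h, Slc30a10 and Slc39a1.

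**Figure D5:**
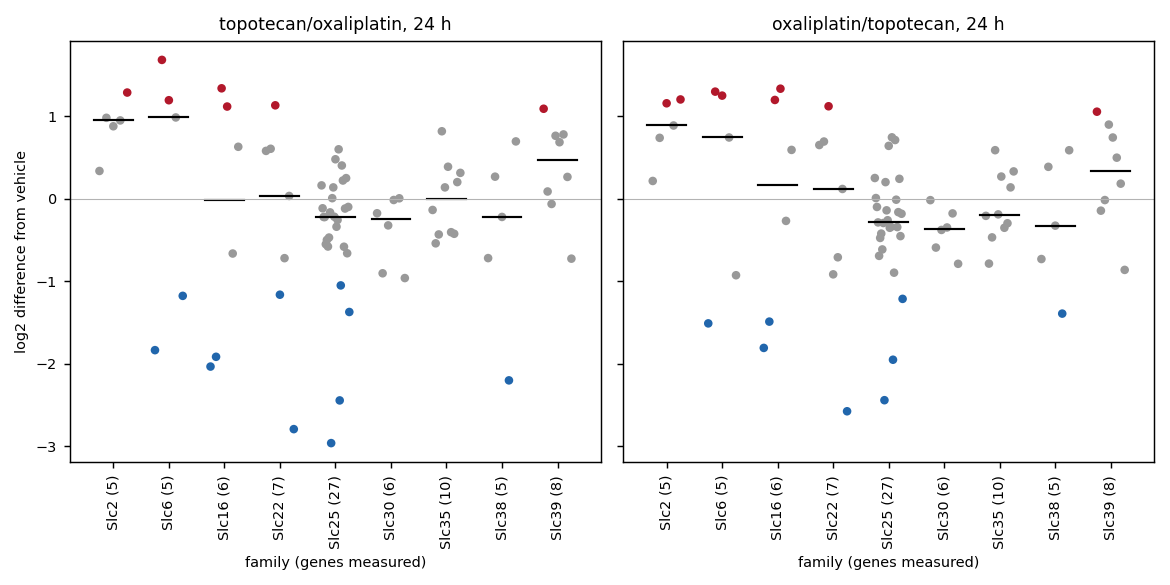
Log2 difference from vehicle at 24 h of each member (points) of the 9 families with 5 or more measured members, in topotecan/oxaliplatin and oxaliplatin/topotecan, with called rises in red, called falls in blue and the family median as a bar. Members of Slc6, Slc16 and Slc22 lie far on both sides of 0, Slc25 reaches -2.96 on the low side without a called rise, and Slc35 stays within 2-fold.

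Transporters that are induced through the factor ATF4 when amino acids are scarce had 6 measured of 9 listed, and none of the 6 was called as rising at any time. At 6 h Slc3a2, the heavy chain that partners Slc7a5, was above vehicle in every treated rat of all 6 treatments, with differences of 0.26 in topotecan/D5W (adjusted p = 0.0351) to 0.83 in oxaliplatin/topotecan (adjusted p = 1.62e-07), under the fold threshold. At 24 h, 2 fell in topotecan/D5W, 2 in D5W/topotecan, 3 in topotecan/oxaliplatin and 1 in oxaliplatin/topotecan, and none in either oxaliplatin group. They were Slc6a9, Slc7a1 and Slc7a5, each by the probe set used. For Slc6a9, the paper lists another probe set as lower in both oxaliplatin groups too. The list's median ran from -0.92 in topotecan/oxaliplatin to -0.45 in D5W/topotecan.

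Among the members, 28 had more than 1 probe set. In 12 of these genes the probe set used was called in a comparison, giving 55 pairs with another probe set, of which 55 had the same sign and 27 were called too. Split into the rats of lower and higher number in a group, all 208 calls had the same sign in both sets of rats. The treated and vehicle rats did not overlap in any of the 208, so this split could not have come out otherwise.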

How the data were processed

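Total RNA of 93 bone marrow samples, 1 per rat, was hybridised to 1-colour Affymetrix rat expression arrays. The deposited values were log2 intensities for which the authors, after leaving out 1 outlier array, had applied RMA (which corrects background, equalises the arrays' distributions and summarises probes) and the pvac filter on agreement among the probes of a probe set, so the number of arrays limits the precision. The RMA and pvac versions are not given in the sources used here. Genes removed by that filter were not analysed here, and medians of the deposited arrays ran from 8.79 to 9.30.

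Of 12560 probe sets, 28 controls were removed and 12532 tested, 10002 of them with 1 annotated symbol, 292 with several and 2238 with none. limma 3.58.1 in R 4.3.3 was fitted separately to NaCl/D5W with its 3 treatments and to D5W/NaCl with its 3, each over 3 times, and contrasts of order used 1 fit of all 8 groups of infusions. P-values were adjusted over all probe sets by the Benjamini-Hochberg method, and a call needed an adjusted p under 0.01 and a fold above 2. Exact two-sided permutation tests over rats used scipy 1.17.1, and tables Python 3.11.15 with pandas 2.3.3. The fits were tested on simulated data.

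Named were members called in all 6 treatments at 1 time, the 5 largest rises and falls per comparison whose rats did not overlap, members of the gene lists, and families of 5 or more. The remaining called members were added, so that every called member could be named. Members and lists were chosen with earlier results of these data known. Alternatives covered a second quantile normalization, other fits, a filter on low values, pooled vehicles, the mean of a gene's probe sets, and each rat left out.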

Additional observations from a re-analysis of the deposited data

Results flagged for a closer look

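Among the members given by rat, 74 groups of 4 rats were examined for 1 rat far from the other 3, and 6 groups had such a rat, where chance gives about 1 in 20. Slc25a21 at 6 h had 7.25 in topotecan/oxaliplatin rat 51, above its 3 companions. Slc16a10 at 24 h had 8.24 in topotecan/oxaliplatin rat 59, below the others, and 10.84 in NaCl/D5W rat 11, above the others. Slc46a3 at 6 h had 6.28 in topotecan/oxaliplatin rat 52, whose array was high in skeletal muscle markers. Slc8a1 at 6 h had 8.18 in NaCl/D5W rat 10, and Slc39a14 at 6 h had 8.41 in D5W/NaCl rat 22, each above its group. One difference between orders of infusion passed its test, that of Slc25a21 at 1 h in the combination, which was lower with topotecan first (-1.02, limma adjusted p = 0.00368).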

How the results depend on the processing

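The calls lay close to the fold threshold more often than to the p threshold, so most changes below are members crossing a factor of 2. Of the 214 called differences, 166 kept their call when each rat was left out in turn, and no called difference changed sign under any alternative tried. All 208 calls against vehicle were kept with all 8 groups in 1 fit, each time fitted alone, and eBayes with trend and robust settings. A second quantile normalization kept 189 of 208, pooled vehicles 183, the mean of a gene's probe sets 195, the animal set (lower or higher animal numbers) as a block 207, and leaving out the arrays high in muscle markers 202. The second normalization shifted the median of all genes by 0.105 in topotecan/D5W, 0.149 in topotecan/oxaliplatin and 0.14 in oxaliplatin/topotecan at 1 h and by 0.103 in oxaliplatin/topotecan at 24 h.

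With no minimum fold, members called in topotecan/D5W, D5W/topotecan, topotecan/oxaliplatin and oxaliplatin/topotecan were 36, 30, 49 and 40 at 1 h. In topotecan/D5W and D5W/topotecan they were 54 and 52 at 6 h and 69 and 71 at 24 h, in oxaliplatin/NaCl and NaCl/oxaliplatin 18 and 25 at 6 h and 76 and 90 at 24 h, and in topotecan/oxaliplatin and oxaliplatin/topotecan 67 and 62 at 6 h and 92 and 85 at 24 h. Without that minimum the counts were 29 for topotecan/oxaliplatin against topotecan/D5W, 24 for it against NaCl/oxaliplatin, 6 for oxaliplatin/topotecan against oxaliplatin/NaCl, 18 for it against D5W/topotecan, 7 and 9 for the order of topotecan alone and of the combination, and 22 and 9 for topotecan against oxaliplatin alone.

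With probe sets above the median mean alone, which left fewer genes, counts over the treatments in that sequence were 1, 0, 0, 0, 1 and 0 at 1 h, 3, 1, 0, 0, 5 and 5 at 6 h, and 11, 11, 8, 8, 18 and 16 at 24 h, with 1 for topotecan/oxaliplatin against topotecan/D5W and 0 for the combination order. The second quantile normalization gave 2 in oxaliplatin/topotecan at 1 h, 0 for oxaliplatin/topotecan against oxaliplatin/NaCl, 1 for topotecan/D5W against NaCl/oxaliplatin (as did the animal set block) and 3 for D5W/topotecan against oxaliplatin/NaCl. The mean of probe sets gave 2 in oxaliplatin/NaCl at 6 h. Pooled vehicles gave 0 in oxaliplatin/NaCl at 1 h and, at 6 h, 3 there, 1 in NaCl/oxaliplatin and 7 in topotecan/oxaliplatin. Without the muscle arrays, counts were 5 for topotecan/oxaliplatin against NaCl/oxaliplatin, 2 for oxaliplatin/topotecan against oxaliplatin/NaCl and 2 for D5W/topotecan against oxaliplatin/NaCl. By direction, topotecan/oxaliplatin at 6 h had 4 rising and 4 falling members after the second quantile normalization and 2 and 5 with pooled vehicles, against 3 and 9, and oxaliplatin/NaCl at 24 h had 4 rising with pooled vehicles, against 8. The cause was not tested.

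Leaving out 1 rat moved counts to 0 to 1 (topotecan order), 0 to 2 (combination order), 1 to 3 (NaCl/oxaliplatin and oxaliplatin/NaCl at 6 h), 5 to 11 (D5W/topotecan at 6 h), 1 to 3 (topotecan/oxaliplatin against topotecan/D5W), 1 to 6 (against NaCl/oxaliplatin), 0 to 2 (oxaliplatin/topotecan against oxaliplatin/NaCl), 0 to 1 (against D5W/topotecan), 0 to 5 (topotecan/D5W against NaCl/oxaliplatin) and 0 to 4 (D5W/topotecan against oxaliplatin/NaCl).

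No paired analysis was possible because each rat gave 1 array and the groups share no animal numbers. With 3 or 4 rats a group, the exact tests could not fall below 0.0286 or 0.0571, and filtered or unmeasured carriers were not analysed here.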
